A study of Mus musculus with 3 samples.

Results

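Tfr subcluster 0 is a cluster of follicular regulatory T cells for which the genes Lmo4 and St8sia1 were listed as markers. Its members are the rows numbered 0 in the authors' table of Tfr cells, matched by cell barcode to the deposited UMI counts (a UMI is a tag that marks 1 captured RNA molecule). They number 1447 of 4909 Tfr rows and of 18693 annotated rows of follicular T cells. A row is a cell in a sequencing run, and 314 rows came from the Siglec-G B cell knockout (BKO), 554 from run 1 of wild type (WT) and 579 from run 2 of WT.

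Tfr cells are Foxp3-expressing regulatory T cells that enter the B cell follicle, where they restrain the help that follicular helper T cells (Tfh) give to germinal centre B cells. Regulatory T cells are usually described along an axis that runs from resting cells, which keep Tcf7, Bach2 and Lef1, to effector cells, which carry Prdm1, Batf, Irf4 and receptors of the tumour necrosis factor family. Genes such as Nr4a1, Nr4a3 and Egr2 are switched on within hours of T cell receptor (TCR) engagement and are read as a trace of recent antigen contact. Lmo4 is a LIM-only adaptor protein that joins transcription factor complexes without binding DNA. St8sia1 encodes the enzyme that makes ganglioside GD3 by adding sialic acid to a glycolipid.

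The study compared follicular T cells of BKO mice, in which B cells lack the sialic acid-binding inhibitory receptor Siglec-G, with those of WT mice. All animals had received liposomes carrying ovalbumin 14 days earlier, Tfh and Tfr cells were sorted together from the spleen, and libraries were made with the 10x Genomics 3′ assay. The genotype label does not name the Cre line, and age, sex and the number of pooled animals are not stated in the labels. The WT samples are the same cells sequenced in 2 runs: all 5554 barcodes of run 1 were among the 5721 of run 2, so 1 BKO library stands against 1 WT library, no test is possible and no difference has a replicate check.

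Members of subcluster 0 had a median of 7293 UMIs in BKO, 5188 in WT run 1 and 8515 in WT run 2, close to the 7002, 5113 and 8385 of the other Tfr cells. Their summed counts came to 2375272, 3311784 and 5510420 UMIs. Levels are given in CPM, the UMIs of a gene relative to all UMIs of the summed cells. Intervals are exact 95% intervals for counting error only, and UMIs of neighbouring molecules from 1 cell are not independent. A gene was called higher or lower only by size, when its mean was at least 20 CPM and the difference was at least 1.5-fold in every library and run (log2 ratios carry 0.5 CPM added to both sides). The clustering used these same cells and genes, so contrasts of subcluster 0 with other Tfr cells describe the cluster and test nothing.

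In the authors' clustering subcluster 0 held 314 of 2044 BKO Tfr rows (15.4%, interval 13.8 to 17.0), against 554 of 1416 in WT run 1 (39.1%, 36.6 to 41.7) and 579 of 1449 in WT run 2 (40.0%, 37.4 to 42.5). Genes that define the cluster, Lmo4 and Pde3b among them, differed between the genotypes over all its members. For Lmo4 this did not hold in most of the members, as described below. The shares are given as how the clustering divided the cells and not as a difference in abundance. Of the WT cells, 422 were in subcluster 0 in both runs, which is 76.2% of its run 1 rows and 72.9% of its run 2 rows. Another 105 of the run 1 rows (19.0%) and 132 of the run 2 rows (22.8%) stood in the Tfh table in the other run. Where a WT cell was a Tfr cell in both runs, its place in subcluster 0 was kept in 97.0% of the run 1 rows and 94.6% of the run 2 rows. All 4909 Tfr rows, members and others alike, had at least 1 Foxp3 UMI, so a Foxp3 UMI says nothing particular of subcluster 0. Among Tfh rows the share with such a UMI was 0.908% in BKO, 0.402% in WT run 1 and 9.95% in WT run 2.

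Both markers were highest in subcluster 0 among the 5 large Tfr subclusters. Lmo4 (ENSMUSG00000028266, chromosome 3, 144188530 to 144205220, minus strand, mm10) stood at 96.8 CPM in BKO members (230 UMIs, interval 84.7 to 110.2), 49.8 CPM in WT run 1 members (165 UMIs, 42.5 to 58.0) and 54.6 CPM in WT run 2 members (301 UMIs, 48.6 to 61.2). In the other Tfr cells it stood at 17.7, 15.0 and 17.1 CPM, which gives log2 ratios of 2.42, 1.70 and 1.65. St8sia1 (ENSMUSG00000030283, chromosome 6, 142821545 to 142964452, minus strand, mm10) stood at 55.6, 51.0 and 44.5 CPM in BKO, WT run 1 and WT run 2 members, against 11.9, 18.6 and 16.4 CPM in other Tfr cells (log2 ratios 2.18, 1.43 and 1.41).

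Both markers gave few UMIs per cell, so a cell without a UMI cannot be read as one that lacks the gene. After thinning every cell to 2500 UMIs, an Lmo4 UMI was found in 13.7% of BKO members (43 of 313, interval 10.1 to 18.1), 6.64% of WT run 1 members (36 of 542) and 9.33% of WT run 2 members (54 of 579), against 3.08%, 3.10% and 3.11% of other Tfr cells. Without thinning, the shares with an Lmo4 UMI were 20.7%, 12.1% and 16.6%, against 7.92%, 6.15% and 8.97%. Thinned St8sia1 was found in 10.5%, 7.93% and 9.15% of members, against 2.50%, 2.74% and 2.88%, and at least 1 of the 2 genes in 21.4%, 13.3% and 16.4% of members, against 5.52%, 5.73% and 5.76%. The unthinned Lmo4 shares lay below those that the same number of UMIs would give at an even level in all members, which are 50.7%, 25.1% and 39.2%. The same held for St8sia1, with 19.1%, 16.1% and 21.4% of members, against 33.8%, 25.6% and 33.5% at an even level, so the UMIs of both genes were spread unevenly over the members.

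The uneven levels could be placed through a second clustering in the authors' tables, made over all follicular T cells at resolution 0.6. In 7 of its 16 clusters over 90% of the annotated rows were Tfh (93.9% in the lowest of the 7, against 86.5% in the next cluster below), and these are called the Tfh-dominated clusters here. They held 83 of the 314 BKO members (26.4%, interval 21.6 to 31.7), against 59 of 554 members in WT run 1 (10.6%, 8.21 to 13.5) and 66 of 579 in WT run 2 (11.4%, 8.93 to 14.3). This group of cells was defined after its values were seen.

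**Figure D1:**
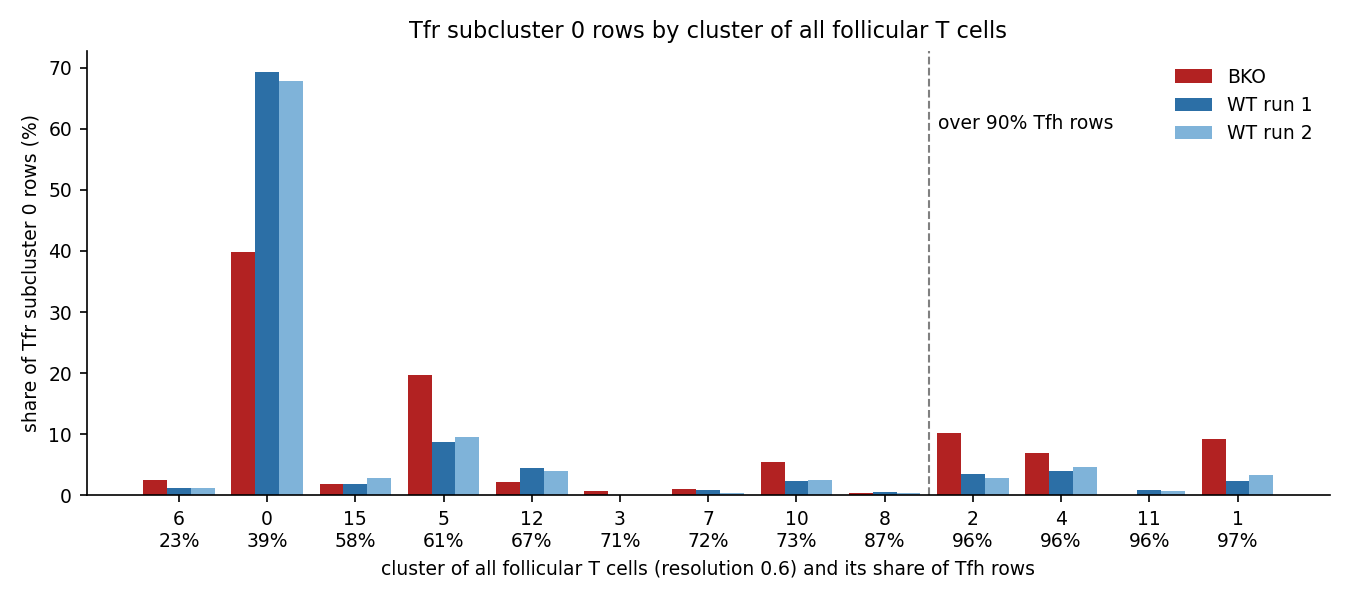
Share of subcluster 0 rows (y axis, percent) in each cluster of all follicular T cells (x axis, ordered by the share of Tfh rows, which is printed under the cluster number), with BKO in red and the WT runs in blue. Cluster 0 held 39.8% of BKO members against 69.3% and 67.9% of WT members. The clusters right of the dashed line, with over 90% Tfh rows, together held more of the BKO members than of the WT members. Cluster 11 alone went the other way, with 0 BKO members against 5 and 4 in the WT runs.

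Members in the Tfh-dominated clusters held 82.6% of the Lmo4 UMIs of subcluster 0 in BKO, 60% in WT run 1 and 62.5% in WT run 2. Their Lmo4 level was 339, 254 and 278 CPM, near that of the Tfh rows of the same clusters (301, 263 and 285 CPM). In the remaining members Lmo4 stood at 22.0, 22.6 and 23.4 CPM, against 16.7, 14.4 and 17.3 CPM in other Tfr cells outside those clusters, and was no longer past the size rule (log2 ratios 0.39, 0.63 and 0.42). St8sia1 kept its call: it stood at 35.8, 39.3 and 33.3 CPM in the remaining members, against 11.8, 18.9 and 16.7 CPM (log2 ratios 1.56, 1.04 and 0.98). The label therefore held for St8sia1 in both sets of members, and for Lmo4 by the size rule only where members in Tfh-dominated clusters were counted. Whether the members in those clusters are Tfr cells was not tested, and the values over all members, the shares of Tfr rows among them, take the authors' table as it stands.

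The regulatory genes differed between the same sets of members. Exactly 1 Foxp3 UMI was found in 76 of 83 BKO members in Tfh-dominated clusters (91.6%), 40 of 59 in WT run 1 (67.8%) and 39 of 66 in WT run 2 (59.1%), against 35.9%, 45.3% and 27.1% of the remaining members. The other Tfr cells of the same clusters were alike in this, with 1 Foxp3 UMI in 73.3%, 69.8% and 54.1% of 30, 43 and 37 cells, and with Ikzf2 at 1793, 1891 and 1807 CPM, but their Lmo4 was 66.9, 23.7 and 11.8 CPM (17, 8 and 5 UMIs). Ikzf2, which encodes the regulatory T cell factor Helios, stood at 1541, 1594 and 1457 CPM in members of the Tfh-dominated clusters and at 3732, 3616 and 3748 CPM in the remaining members. Il2ra, the high-affinity chain of the interleukin 2 receptor, stood at 3.57, 66.8 and 56.3 CPM in those clusters, against 70.5, 92.7 and 106 CPM in the remaining members. A pair of genes from the follicular list, picked after their values were seen, were higher in those clusters. Cd40lg, the ligand through which helper cells signal to B cells, stood at 228, 200 and 191 CPM, against 53.5, 34.2 and 41.2 CPM. Sostdc1, a secreted antagonist of Wnt and BMP signals, stood at 273, 460 and 355 CPM, against 9.92, 25 and 22.1 CPM. How the other genes of that list differ between these sets is not given here, so the pair does not stand for the list. In BKO droplets of 1 to 50 UMIs, which hold mostly free RNA, Foxp3 made up 112 CPM, Lmo4 101 CPM and St8sia1 52.2 CPM. Such droplets are not in the WT matrices used here, and their part in these values was not tested.

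**Figure D2:**
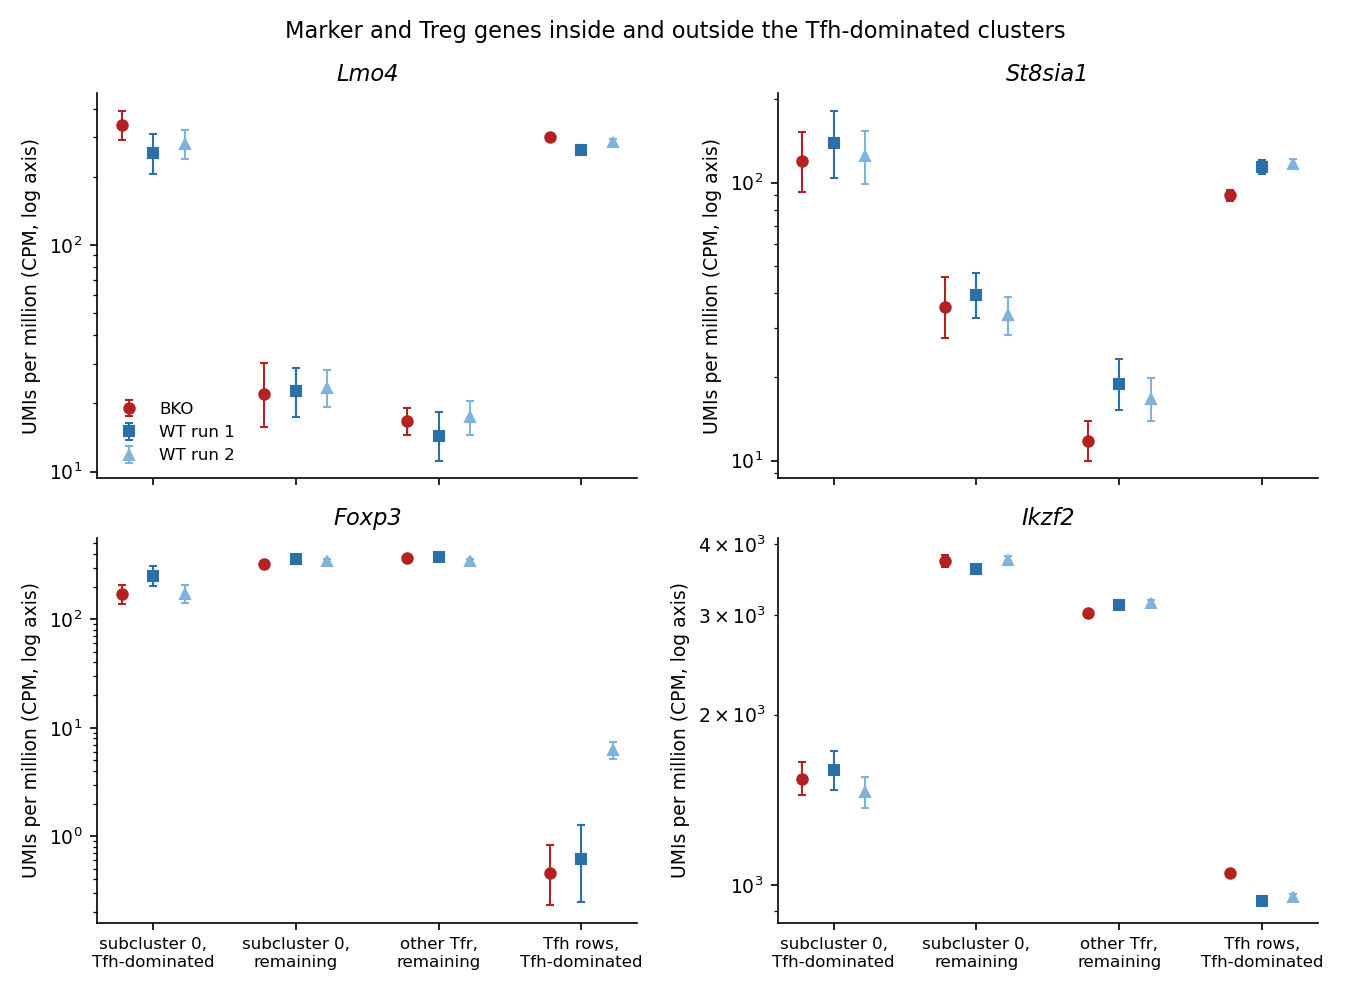
Level of 4 genes in CPM (log axis) in subcluster 0 members of Tfh-dominated clusters, the remaining members, other Tfr cells outside those clusters and Tfh rows of those clusters, with BKO in red, WT runs in blue and bars for exact 95% Poisson intervals. Lmo4 in the first set lies near the Tfh level (339 CPM in BKO members, 301 CPM in BKO Tfh rows), while Ikzf2 lies between the Tfh level and that of the remaining members.

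Against all other Tfr cells, 134 of 6571 measured genes were higher in subcluster 0 in every library and run (2.04%) and 112 were lower (1.7%). The counts of called genes within gene lists, given below, stand beside these shares. Without the members and other Tfr cells of the Tfh-dominated clusters 147 genes were higher, 105 of them among the 134, and 113 were lower, 95 of them among the 112. The higher genes set subcluster 0 apart from subclusters 1 and 2 more than from 3 and 4: 107 of the 134 were past 1.5-fold in every library against subcluster 1 and 114 against subcluster 2, but 61 against subcluster 3 and 29 against subcluster 4, and 9 against all 4.

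Among the higher genes, Hdac9, a class IIa histone deacetylase (ENSMUSG00000004698, chromosome 12, 34047580 to 34917095, minus strand, mm10), had the highest level of the 10 leading ones. It stood at 212, 248 and 252 CPM in BKO, WT run 1 and WT run 2 members, against 68.4, 95.2 and 87.4 CPM in other Tfr cells (log2 ratios 1.62, 1.38 and 1.52). Hdac9 was low in the members of Tfh-dominated clusters (14.3, 64.3 and 71.1 CPM) and its ratio was 1.97, 1.43 and 1.64 without them. A small cluster of the wider clustering, number 12, held 7, 25 and 23 members and 22.9%, 43.2% and 40.3% of the Hdac9 UMIs, at 1708, 1716 and 1751 CPM.

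Nr3c2, the mineralocorticoid receptor, stood at 102, 68.8 and 75.5 CPM in members, against 32.7, 30.4 and 28.5 CPM, and Rundc3b, a RUN domain protein, at 77.0, 84.5 and 93.6 CPM, against 29.8, 33.8 and 40.1 CPM. Rflnb, a filamin-binding protein, stood at 100.2, 71.3 and 70.2 CPM, against 30.7, 32.8 and 29.4 CPM. Hdac9, Nr3c2, Rundc3b, Rflnb and St8sia1 were called with and without the Tfh-dominated clusters. The other 5 leading genes were not called without them: Lmo4, the cyclic AMP phosphodiesterase Pde3b (84.2, 31.7 and 34.7 CPM in all members, 23.1, 17.1 and 15.3 CPM in the remaining ones), Sostdc1, the muscarinic receptor Chrm3 and the Rac-regulating protein Chn2.

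**Figure D3:**
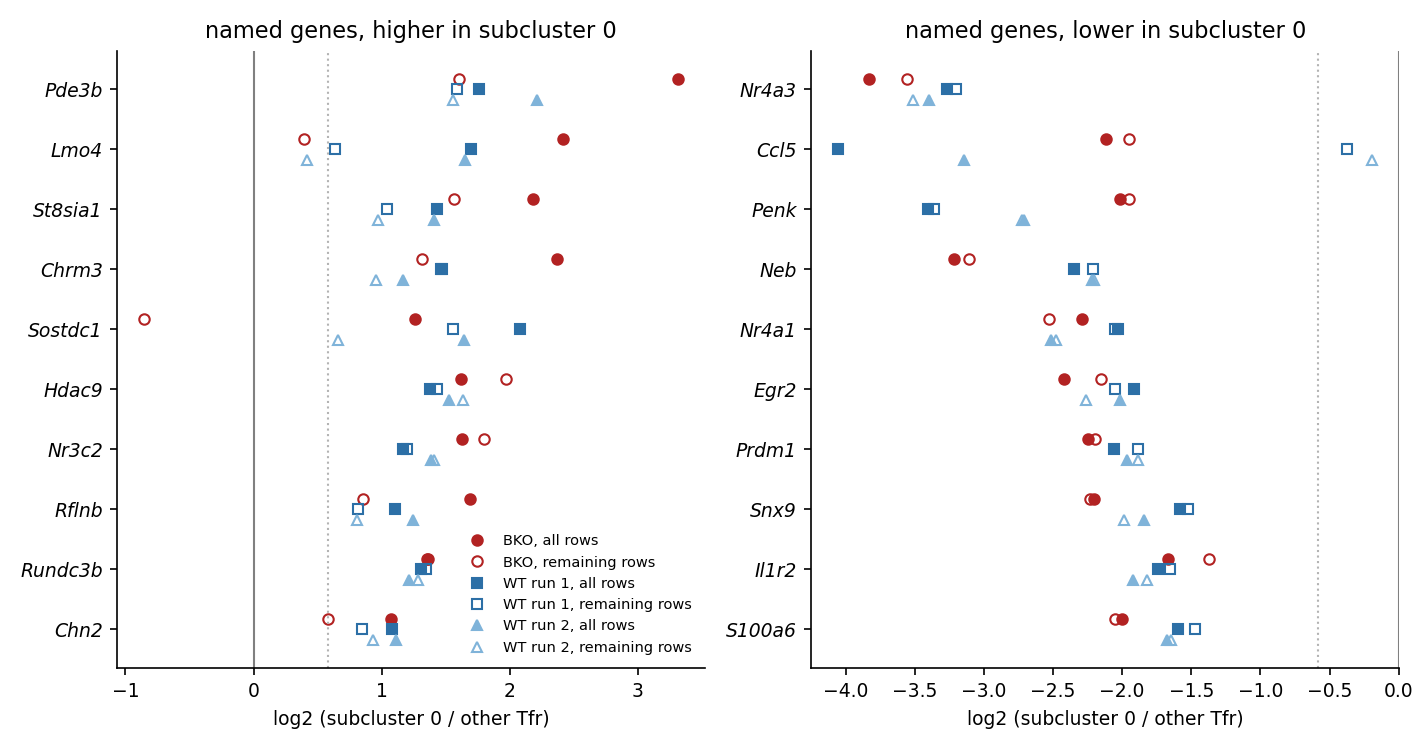
Log2 ratio of subcluster 0 to other Tfr cells (x axis) for the 10 leading genes higher (left) and lower (right) in subcluster 0, by library, with filled symbols for all rows, open symbols for rows outside the Tfh-dominated clusters and dotted lines at 1.5-fold. The filled and open symbols of Lmo4, of Sostdc1 in BKO and of Ccl5 in the WT runs lie apart, while those of Hdac9, Rundc3b and Nr4a3 lie close together.

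Further enzymes that attach sialic acid were higher in subcluster 0 beside St8sia1. Of 18 measured genes of sialic acid and ganglioside synthesis, 4 were higher and none lower, with a median log2 ratio of 0.58 in BKO, 0.30 in WT run 1 and 0.37 in WT run 2, against 0.13, 0.08 and 0.07 over all measured genes. St6gal1, which adds the alpha-2,6-linked sialic acid that Siglec-G can bind, stood at 592, 579 and 595 CPM in members, against 281, 362 and 364 CPM. St6galnac3, which sialylates gangliosides and O-glycans, stood at 432, 693 and 694 CPM, against 214, 405 and 374 CPM, and the alpha-2,8-sialyltransferase St8sia6 at 11.8, 41.4 and 44.1 CPM, against 3.57, 18.6 and 21.4 CPM. All 4 were also called without the Tfh-dominated clusters, and 3 of the 4 with TMM scaling, a trimmed mean of ratios used as library size. St3gal1, which sialylates O-glycans, was not called (173, 173 and 187 CPM, against 119, 153 and 154 CPM).

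Of 12 measured genes of resting regulatory and naive T cells 3 were higher and none lower, and 11 had a ratio above 0 in every library and run (medians 0.66, 0.41 and 0.42). Bach2, a repressor that holds back effector genes, stood at 167, 231 and 230 CPM, against 86.1, 142 and 139 CPM. Tcf7, which encodes TCF-1, stood at 449, 317 and 324 CPM, against 184, 193 and 196 CPM, but at 856, 668 and 675 CPM in members of the Tfh-dominated clusters and, without those clusters, at a ratio of 0.86, 0.51 and 0.49 that misses the size rule. Actn1, an actin cross-linker, was called both ways. Lef1, which encodes a relative of TCF-1 (277, 297 and 310 CPM, against 161, 232 and 236 CPM), was not called.

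Among follicular genes Slamf6, a self-binding receptor of T cells in contact with B cells (496, 533 and 520 CPM, against 240, 317 and 305 CPM), Il6ra, the interleukin 6 receptor (175, 185 and 181 CPM, against 77.0, 110 and 117 CPM), and Sostdc1 were higher, and Rgs16 and Cebpa lower, of 21 measured. Cxcr5, the receptor that draws T cells into the follicle, was not called (175, 132 and 125 CPM, against 124, 120 and 120 CPM), nor was the follicular factor Bcl6 (123, 121 and 134 CPM, against 108, 121 and 120 CPM). Nrp1, a receptor of thymus-derived regulatory cells in the mouse (486, 616 and 624 CPM, against 253, 389 and 388 CPM), the inhibitory receptor Cd96 (154, 219 and 207 CPM, against 75.3, 115 and 109 CPM) and Ssbp2, which binds the Ldb1 complexes that Lmo4 joins (249, 264 and 267 CPM, against 117, 168 and 156 CPM), were also higher. Of 8 measured genes of LIM proteins and their partners, Lmo4 and Ssbp2 were higher and Crip1 lower.

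The genes lower in subcluster 0 were led by TCR-response genes. Of 16 measured genes of that list 10 were lower and none higher, with median log2 ratios of -1.13, -0.94 and -1.03, and all 10 were also lower without the Tfh-dominated clusters. Nr4a3, an orphan nuclear receptor (ENSMUSG00000028341, chromosome 4, 48045153 to 48086447, plus strand, mm10), gave 3, 15 and 27 UMIs in members of BKO, WT run 1 and WT run 2, which is 1.26, 4.53 and 4.90 CPM, against 24.6, 47.8 and 56.3 CPM in other Tfr cells (log2 ratios -3.83, -3.26 and -3.39). Its relative Nr4a1 stood at 7.16, 12.7 and 10.2 CPM, against 37.0, 53.4 and 60.4 CPM, and the zinc finger factor Egr2 at 5.89, 7.55 and 8.35 CPM, against 33.8, 29.8 and 35.4 CPM. The early-response factors Egr1 and Junb, the inhibitors of NF-kappa-B signalling Nfkbia and Nfkbid, the factors Irf4 and Bhlhe40 and the retention receptor Cd69 were the other 7.

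Subcluster 3 stood out among the other Tfr cells for these genes. Each of the 10 TCR-response genes was highest in Tfr subcluster 3 in every library and run among the 5 large subclusters, and subcluster 0 was past 1.5-fold below subcluster 3 for all 10, below subcluster 1 for 6, below subcluster 2 for 3 and below subcluster 4 for 2. Nr4a3 stood at 79.1, 175 and 189 CPM in subcluster 3, against 1.55, 8.12 and 5.78 CPM in subcluster 2. Only Nfkbia was past 1.5-fold below all 4. By level alone, subcluster 0 was the lowest of the 5 in every library and run for Nr4a3, Nfkbia, Nfkbid and Junb, and in BKO also for Irf4, Nr4a1, Egr2 and Bhlhe40. Some of these ranks rest on few UMIs. In BKO the interval of Nr4a3 was 0.26 to 3.69 CPM (3 UMIs), against 0.50 to 3.63 CPM in subcluster 2 (5 UMIs). That of Egr2 was 3.22 to 9.89 CPM, against 3.33 to 17.1 CPM in subcluster 4. Of all 112 lower genes 35 were highest in subcluster 3, 27 in subcluster 1, 11 in subcluster 2 and 4 in subcluster 4 in every library and run, and 5 were past 1.5-fold below each of the 4: Tnfrsf4, Tnfrsf9, Il1r2, Nfkbia and Gadd45b (named after their values were seen).

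**Figure D4:**
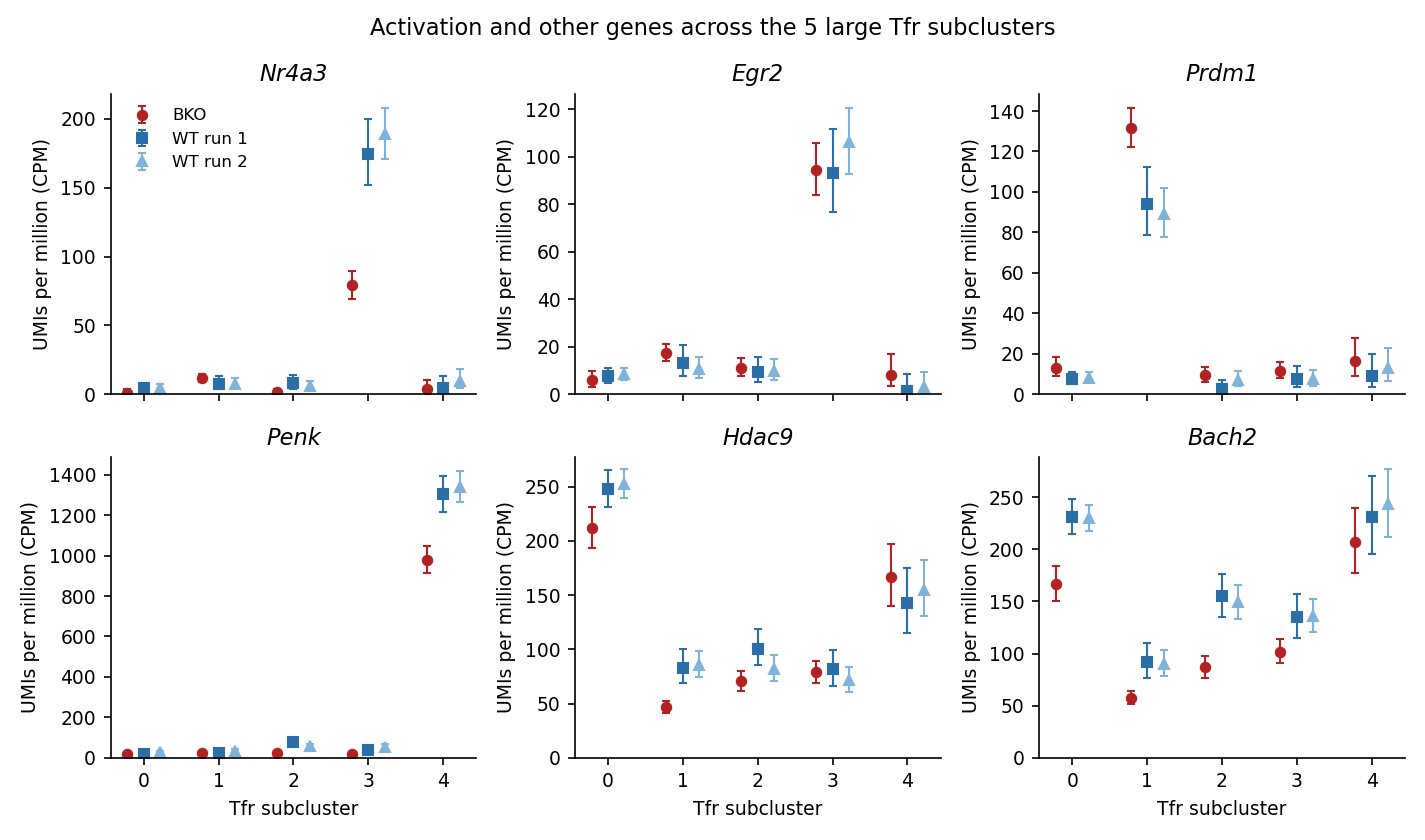
Level of 6 genes in CPM (y axis, linear from 0) in the 5 large Tfr subclusters (x axis), with BKO in red, WT runs in blue and bars for exact 95% Poisson intervals. Nr4a3 and Egr2 stand out in subcluster 3, Prdm1 in subcluster 1 and Penk in subcluster 4, so that subcluster 0 shares its low levels with other subclusters, while Hdac9 and Bach2 are high in subclusters 0 and 4.

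The promoters of 3 of the lower TCR-response genes are shown because the letters TGACGT, the core of the site that cyclic AMP-response factors and their relatives bind, occur in them. They were taken from RefSeq on GRCm38.p6 (the assembly of mm10), run from 250 bases before to 50 bases after an annotated start and lie on the plus strand. They are chr4:48045055-48045354 for Nr4a3, chr7:30422156-30422455 for Nfkbid and chr10:67537619-67537918 for Egr2, 5′ to 3′ with matches to TGACGT or its reverse complement ACGTCA in capitals.

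Nr4a3: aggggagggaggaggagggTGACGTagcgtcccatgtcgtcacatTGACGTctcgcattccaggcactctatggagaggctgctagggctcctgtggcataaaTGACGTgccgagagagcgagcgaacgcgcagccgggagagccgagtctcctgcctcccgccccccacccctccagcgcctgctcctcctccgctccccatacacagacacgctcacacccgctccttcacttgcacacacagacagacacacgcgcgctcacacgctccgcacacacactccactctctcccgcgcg
Nfkbid: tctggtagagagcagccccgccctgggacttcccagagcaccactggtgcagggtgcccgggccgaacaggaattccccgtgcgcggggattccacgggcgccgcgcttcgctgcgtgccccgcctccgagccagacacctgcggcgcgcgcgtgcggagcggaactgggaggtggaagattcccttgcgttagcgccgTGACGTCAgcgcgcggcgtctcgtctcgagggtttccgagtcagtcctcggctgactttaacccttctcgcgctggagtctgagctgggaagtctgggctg
Egr2: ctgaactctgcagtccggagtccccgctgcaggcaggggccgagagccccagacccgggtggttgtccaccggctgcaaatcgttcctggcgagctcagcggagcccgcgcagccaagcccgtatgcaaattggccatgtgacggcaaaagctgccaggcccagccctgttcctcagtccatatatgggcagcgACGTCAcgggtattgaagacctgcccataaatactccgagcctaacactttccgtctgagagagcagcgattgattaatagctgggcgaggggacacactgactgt

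Nr4a3 holds 3 matches, which begin 231, 205 and 147 bases before the start. Nfkbid holds matches on both strands that overlap, at 51 and 49 bases before the start of 1 of its 3 listed promoters, and Egr2 holds 1 match, 56 bases before the start of 1 of its 5. Of the 10 lower TCR-response genes 7 had a promoter in the table and 3 of these held a match (42.9%), as did 5 of the 11 with a promoter among all 16 measured genes of the list (45.5%). The share was 14.7% over measured genes (776 of 5265) and 7.51% over all listed promoters (2468 of 32851). A match describes these letters and not binding.

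Of 13 measured effector Treg genes 5 were lower and none higher: Prdm1, Batf, Irf4, Lag3 and Klrg1. Prdm1, whose product Blimp-1 drives effector programmes, stood at 13.1, 7.55 and 8.17 CPM, against 63.8, 33.0 and 33.4 CPM, and in subcluster 1 at 132, 94.3 and 89.2 CPM. The co-stimulatory receptor Tnfrsf4 (OX40) stood at 265, 265 and 237 CPM, against 908, 726 and 660 CPM, and its relative Tnfrsf9 (4-1BB) at 142, 148 and 136 CPM, against 377, 353 and 343 CPM. Receptors of that family did not all go one way, since Tnfrsf26, which is on none of the lists, was higher in subcluster 0. Il10, which encodes a suppressive cytokine and lies under the 20 CPM limit, gave 2, 1 and 5 UMIs in members, which is 0.842, 0.302 and 0.907 CPM, against 29.9, 13.4 and 8.84 CPM. Il10 was also low in subclusters 2 (1.55, 0.676 and 0 CPM) and 4 (1.18, 3.07 and 4.36 CPM). It stood at 52.6, 37.6 and 23.5 CPM in subcluster 1 and at 28.8, 5.72 and 5.03 CPM in subcluster 3. Of 19 measured core Treg genes Nrp1 was higher and 5 were lower (Tnfrsf4, Tnfrsf9, Tnfrsf18, Tnfrsf1b and Capg). Foxp3 itself stood at 286, 350 and 323 CPM, against 361, 360 and 336 CPM, the inhibitory receptor Ctla4 at 360, 305 and 299 CPM, against 662, 391 and 392 CPM, and neither was called.

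The other leading lower genes were S100a6, a calcium-binding protein (323, 356 and 321 CPM, against 1293, 1076 and 1024 CPM), Penk, the precursor of enkephalins (20.6, 19.3 and 29.4 CPM, against 84.9, 210 and 195 CPM), Il1r2, the decoy receptor for interleukin 1 (27.8, 24.8 and 22.3 CPM, against 89.5, 84.0 and 85.9 CPM), Neb, Snx9 and Ccl5. Penk stood at 979 CPM in BKO and 1302 and 1340 CPM in the WT runs in subcluster 4. Ccl5, a chemokine of cytotoxic and effector cells, stood at 7.86 CPM in BKO, 8848 CPM in WT run 1 and 7757 CPM in WT run 2 in the other Tfr rows of the Tfh-dominated clusters. Its log2 ratio was -2.12, -4.06 and -3.14 with them and -1.95, -0.37 and -0.19 without them, so that the BKO ratio changed little, those of the WT runs came near 0 and it was not called.

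Metabolic genes were lower by smaller steps. All 44 measured genes of oxidative phosphorylation had a ratio below 0 in every library and run (medians -0.48, -0.40 and -0.41), although 1 of them, Atp5g1, was past 1.5-fold. Of 12 glycolysis genes 3 were lower (Tpi1, Ldha and Pgam1) and none higher. Of 15 survival genes Bcl2a1b and Bcl2a1d were lower, whose near-identical sequences make their separate counts uncertain. Of 10 cell cycle genes H2afz was lower, and of 10 heat shock and dissociation genes Hspa8. Of 19 type I interferon genes and of 12 TGF-beta pathway genes none was called in either direction. Over all 6571 measured genes 2.04% were higher and 1.7% lower, so a list with 1 call or none says little.

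RNA content moved with these groups. Genes with over 100 kb of introns took 15.5%, 17.2% and 17.3% of UMIs in members, against 11.3%, 13.8% and 13.8% in other Tfr cells. Ribosomal protein genes took 16.8%, 15.8% and 16.2%, against 19.6%, 17.7% and 18.4%, and the nuclear RNA Malat1 stood at 26893, 22378 and 23968 CPM, against 20362, 18411 and 19436 CPM. A low ribosomal share was not particular to subcluster 0, since subcluster 3 was lower still (16.1%, 14.2% and 15.3%). Malat1 stood at 24099.5, 21920.5 and 22318.9 CPM in subcluster 3. The ribosomal share was highest in subcluster 2 (24.7%, 22.2% and 23.1%). The median log2 ratio of genes with under 3 kb of introns was -0.29, -0.22 and -0.22 and that of genes over 100 kb was 0.47, 0.32 and 0.32, and the higher genes had a median of 100 kb of introns, against 5.55 kb for the lower genes and 24.2 kb for all measured. With a running median over intron length taken off, 68 genes were higher and 117 lower, and Atp5g1 was no longer called. The scaling also moved the balance: with TMM scaling 64 genes were higher and 235 lower (21.4% of calls higher, against 54.5% with total counts). Whether RNA per cell, nuclear RNA or regulation underlies these shifts was not tested.

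Markers of other cell types were counted in the same cells. The 10 B cell markers summed to 38.7, 20.5 and 27.2 CPM in members, against 31.2, 26.8 and 26.0 CPM in other Tfr cells. The 12 markers of CD8 T and NK cells summed to 54.3, 105 and 118 CPM, against 96.0, 821 and 590 CPM, and Cd8a and Ncr1 were at 0 UMIs, while Cd8b1 gave 20, 31 and 50 UMIs. The 8 markers of gamma delta and innate-like T cells summed to 0 UMIs in BKO members and to 3.62 and 3.09 CPM in the WT runs, against 9.84, 6.40 and 8.22 CPM. Myeloid markers summed to 89.7, 81.8 and 80.6 CPM, against 154, 118 and 110 CPM. Plasma cell markers summed to 83.8, 96.0 and 91.3 CPM, against 92.5, 97.6 and 96.4 CPM, with Mzb1 at 0 UMIs, and erythroid markers to 8.0, 5.13 and 6.35 CPM, against 6.43, 4.60 and 3.86 CPM. Of the 13 general T cell markers none was called.

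Tfh subcluster 0, the cluster of the Tfh table with the highest Lmo4, offered a comparison outside the Tfr cells. There Lmo4 stood at 480, 484 and 506 CPM and St8sia1 at 141, 186 and 194 CPM in BKO, WT run 1 and WT run 2. Against other Tfh cells 226 genes were higher there (3.44% of 6573) and 154 lower (2.34%). Of the 134 genes higher in Tfr subcluster 0, 49 were among these (36.6% of the Tfr list, 21.7% of the Tfh list), and of the 112 lower genes 43 (38.4% and 27.9%). Hdac9 differed: it was lower in Tfh subcluster 0 than in other Tfh cells (log2 ratios -1.17, -1.63 and -1.51), where it was higher in Tfr subcluster 0 than in other Tfr cells.

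Within subcluster 0, 39 of 6634 measured genes passed the size rule upwards in BKO against each WT run (0.588%) and 78 passed it downwards (1.18%). In the other Tfr cells 42 of 6460 were higher (0.65%) and 109 lower (1.69%), and 10 of the 39 and 22 of the 78 were called in the same direction there and none in the opposite one. With WT run 1, which carries the same batch label as BKO, as the sole WT sample, 98 genes were higher and 118 lower. The same rule was also applied with each WT run set against BKO and the other WT run. It called 0 genes higher and 3 lower for run 1, and 0 and 0 for run 2. Since the WT runs hold the same cells, few calls were possible. These counts say nothing of a second animal and are no yardstick for the 39 and 78 genes. Siglecg gave 0 UMIs in subcluster 0 in BKO and in both WT runs, which allows up to 3 UMIs in each, and since the knockout is in B cells it checks nothing here.

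**Figure D5:**
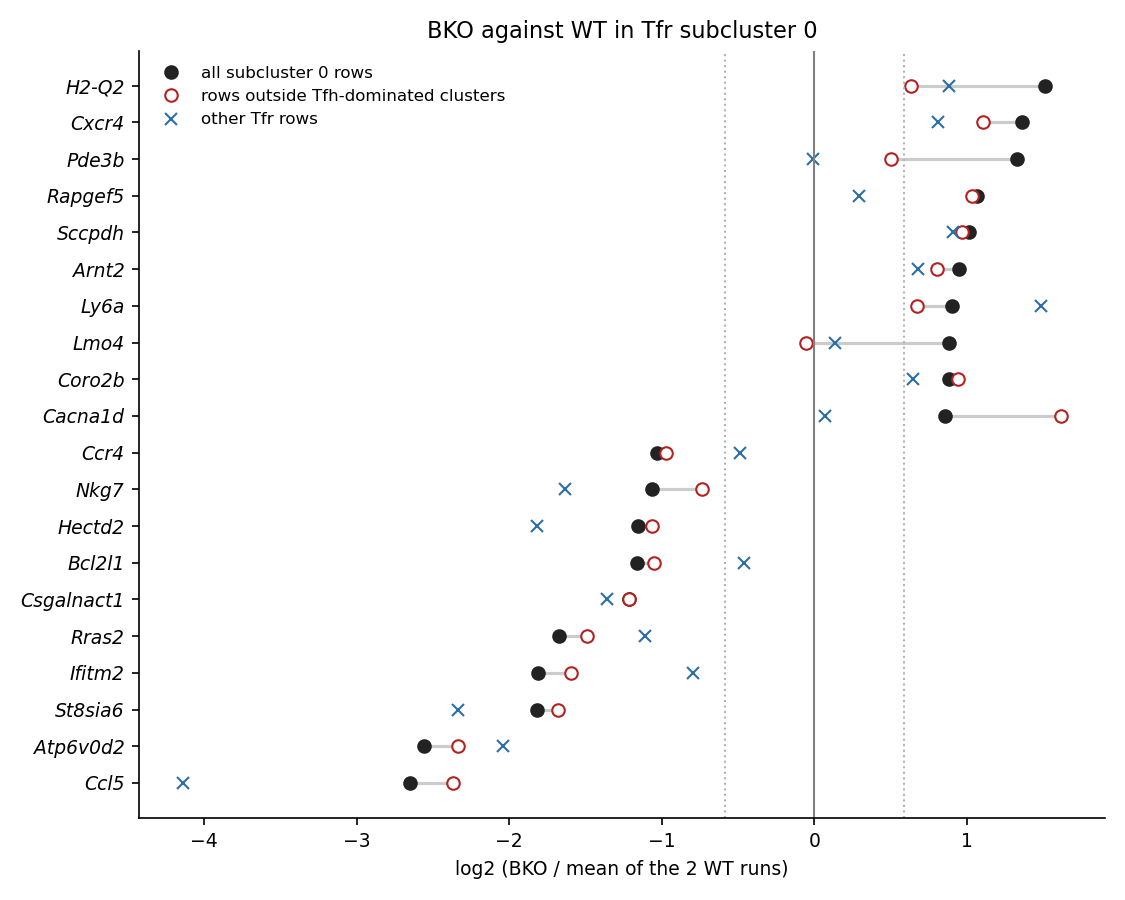
Log2 ratio of BKO to the mean of the WT runs (x axis) for the 10 leading genes in each direction, in all subcluster 0 rows (black), in those outside Tfh-dominated clusters (open red) and in other Tfr rows (blue crosses), with dotted lines at 1.5-fold. Lmo4 and Pde3b move from 0.88 and 1.33 in all rows to -0.06 and 0.50 outside the Tfh-dominated clusters, while Cxcr4, Rapgef5, Sccpdh and Coro2b stay above 0.9.

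Of the leading genes higher in BKO, 4 kept their call without the Tfh-dominated clusters. Cxcr4, the receptor for the chemokine CXCL12 (ENSMUSG00000045382, chromosome 1, 128588199 to 128592293, minus strand, mm10), stood at 48.4 CPM in BKO members, against 16 and 21.1 CPM in the WT runs (2.57-fold, log2 ratio 1.36). The ratio to run 1 had an interval of 2.17 to 4.27 and that to run 2 of 1.76 to 3.0, and the log2 ratio was 1.11 without the Tfh-dominated clusters. Cxcr4 was higher in BKO in other Tfr cells as well (log2 ratio 0.81), and it made up 40.3 CPM of the BKO droplets of 1 to 50 UMIs. Among cells with at least 2 Foxp3 UMIs its ratio was 1.12 and missed the size rule.

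Rapgef5, an exchange factor for Rap GTPases, stood at 153 CPM in BKO, against 72.8 and 72.6 CPM (log2 ratio 1.07, and 0.29 in other Tfr cells). Sccpdh, a saccharopine dehydrogenase-like protein, stood at 36.2 CPM, against 19.0 and 16.3 CPM, and Coro2b, a coronin, at 40.0 CPM, against 20.5 and 22.5 CPM. The chemokine receptor Cxcr3 of Th1-type cells (61.5 CPM, against 35.6 and 29.9 CPM) and the death receptor Fas (88.0 CPM, against 53.7 and 58.4 CPM) were higher with and without the Tfh-dominated clusters, and Fas was not called among cells with at least 2 Foxp3 UMIs or with TMM scaling.

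The other 6 leading genes, Lmo4, Pde3b, H2-Q2, Ly6a, Arnt2 and Cacna1d, were not called without the members of Tfh-dominated clusters. Lmo4 was 1.85-fold higher in BKO over all members, against a log2 ratio of -0.06 among the remaining members and -0.17 among those with at least 2 Foxp3 UMIs. Pde3b stood at 84.2 CPM in BKO, against 31.7 and 34.7 CPM, with a log2 ratio of 1.33 over all members, 0.50 among the remaining ones and -0.28 with at least 2 Foxp3 UMIs. H2-Q2, a class Ib histocompatibility gene with close relatives that can share reads, had ratios of 1.51 and 0.63, and the interferon-inducible surface protein gene Ly6a 0.90 and 0.67. The factor Arnt2 had 0.95 and 0.81, and the calcium channel Cacna1d 0.86 and 1.61, where its mean lay under the 20 CPM limit. In the BKO droplets that hold mostly free RNA, Pde3b made up 86.6 CPM, H2-Q2 42.7 CPM and Ly6a 325.5 CPM. BKO members held H2-Q2 at 40.8 CPM and Ly6a at 138.5 CPM. Such droplets are not in the WT matrices used here, and their part in the ratios of Pde3b, H2-Q2 and Ly6a was not tested. The share of members in Tfh-dominated clusters was 26.4% in BKO, against 10.6% and 11.4% in the WT runs, and its part in the calls of Lmo4, Pde3b, H2-Q2 and Ly6a beyond these values was not tested. The ratio of Arnt2 stayed near its value over all members, and that of Cacna1d was larger without those clusters.

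Of the 78 genes lower in BKO 47 were also called without the Tfh-dominated clusters, and of the 39 higher genes 21. Ccl5 stood at 6.74 CPM in BKO members, against 38.0 and 51.9 CPM (6.28-fold lower), and Atp6v0d2, a subunit of the vacuolar proton pump, at 13.1 CPM, against 81.8 and 77.1 CPM (5.90-fold lower). The sialyltransferase St8sia6 stood at 11.8 CPM, against 41.4 and 44.1 CPM, and the interferon-induced membrane protein Ifitm2 at 8.42 CPM, against 32.3 and 29.2 CPM. All 10 leading lower genes, which also hold the Ras-family GTPase Rras2, the chondroitin synthesis enzyme Csgalnact1, the survival gene Bcl2l1, the ubiquitin ligase Hectd2, the granule protein Nkg7 and the chemokine receptor Ccr4, were called without the Tfh-dominated clusters too. Ccl5, Atp6v0d2, Ifitm2, Rras2, Csgalnact1 and Nkg7 were lower in BKO in other Tfr cells as well. The other Tfr cells include Tfr subcluster 6, which held 27 and 20 rows in the WT runs and 0 in BKO. Ccl5 stood there at 13388 and 13662 CPM in the WT runs, and Nkg7 at 1581 and 1249 CPM. In BKO Ccl5 was below both WT runs in subclusters 1, 2 and 3, but not in 4 (63.9 CPM, against 47.7 and 103.6 CPM). Nkg7 was below both in subclusters 2, 3 and 4, but not in 1 (42.2 CPM, against 45.7 and 37.1 CPM). The part of subcluster 6 in the Ccl5 and Nkg7 ratios was not tested.

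The calls between genotypes within the gene lists stand beside 0.588% higher and 1.18% lower over all 6634 measured genes. Of 18 sialic acid genes St8sia6, St6galnac3 and St3gal2 were lower in BKO and none higher, and St6galnac3 (432 CPM in BKO, against 693 and 694 CPM) lost its call without the Tfh-dominated clusters, where its log2 ratio was -0.47 in place of -0.68. Of 16 survival genes Fas was higher and Bcl2 and Bcl2l1 lower, and Bcl2 (199 CPM, against 323 and 305 CPM) had a ratio of -0.52 in place of -0.66 without those clusters and lost its call. Of 16 homing genes Cxcr4 and Cxcr3 were higher and Ccr4 lower. Of 19 core Treg genes Il2ra was lower (54.7 CPM, against 89.7 and 99.8 CPM), with a ratio of -0.79 over all members and -0.49, not called, among the remaining ones. Of 10 TCR-response genes, 19 interferon genes and 44 oxidative phosphorylation genes none was called in either direction, while 37 of the 44 had a ratio above 0 (median 0.14, against -0.04 over all measured genes). With such small shares called over all measured genes, the lack of a call says little about these lists.

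Some genes differed between genotypes more in subcluster 0 than in other Tfr cells, by the size of the gap between ratios and with no test. Ntrk3, a neurotrophin receptor, stood at 158 CPM in BKO members, against 94.2 and 82.6 CPM (log2 ratio 0.84, and 0.02 in other Tfr cells), and at 0.31 without the Tfh-dominated clusters and -0.10 with at least 2 Foxp3 UMIs. Apol7e, an apolipoprotein L, stood at 35.4 CPM, against 16.6 and 20.7 CPM (0.91, and -0.01 in other Tfr cells), and at 1.05 without those clusters. S100a4, a calcium-binding protein, stood at 151 CPM, against 292 and 256 CPM (-0.86, and -0.10 in other Tfr cells), and the acyl-CoA synthetase Acsbg1 at 17.7 CPM, against 32.0 and 35.8 CPM (-0.92, and 0.22 in other Tfr cells). The phosphatase gene Dusp16 had ratios of -0.79 in subcluster 0 and 0.00 in other Tfr cells. Single subclusters did not all follow these pooled ratios. S100a4 in BKO was below both WT runs in subclusters 1, 2 (201.5 CPM, against 342.9 and 376.3 CPM) and 3, but not in 4. Acsbg1 was below both in subclusters 2 and 3, but not in 1 and 4. Ntrk3 was above both in subclusters 2 (44.5 CPM, against 20.3 and 27.1 CPM) and 3, but not in 1 and 4. Apol7e was above both in subclusters 1 to 4. Genes with long introns had lower ratios (median -0.16 over 100 kb of introns, against 0.08 under 3 kb), and with a running median over intron length taken off 50 genes were lower in BKO. The WT and BKO counts come from different versions of the counting software, and its part in this trend was not tested.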

How the data were processed

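Follicular T cells of mouse spleen were profiled with 10x Chromium 3′ libraries, 2 samples labelled WT (batches 1 and 2) and 1 labelled BKO (batch 1). Raw UMI counts were deposited as 1 matrix a sample. Per the file headers WT counts came from cellranger 7.0.1 and BKO counts from Cell Ranger 4, and the genome was mm10, per the submitters' processing notes. Whether intronic reads were counted is not stated there. WT matrices held called cells, the BKO matrix 1275404 unfiltered barcodes. The authors' deposited tables give each cell's Tfh or Tfr class, subcluster (resolution 0.3) and mitochondrial percent. They hold cells under 10% mitochondrial UMIs and 4000 genes. The labels do not say whether doublets were removed, and none were called.

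Rows were matched to matrices by barcode. The tables name WT without the run, which was taken from the barcode suffix. All 5117 barcodes of the run 2 suffix were found in the matrix of run 2, and 5077 of them in that of run 1, so the run 2 matrix was taken. The 5143 barcodes of the run 1 suffix were found in both matrices. There the UMI totals decided, which were equal for 4023 rows in the run 1 matrix and for 0 in that of run 2. For run 2 the matrix held a median of 1.52 times the UMIs in the table, and the matrix was used. UMI totals of barcodes shared by the WT runs correlated at r = 0.997, so these were counted as 1 library. The plan set the size rule without p-values for WT runs that hold the same cells. A count model was kept for the case of separate WT libraries and was not used. Counts were summed per run and cell set (Python 3.11.15, numpy 2.4.6, scipy 1.17.1). Intervals are exact Poisson, Clopper-Pearson or conditional, at 95%. Named genes are the 10 leading per direction in each contrast by the smallest ratio, leaving out TCR, immunoglobulin, ribosomal, mitochondrial and unnamed genes, with called list members, the 4 most abundant members per list, 17 fixed genes and the 5 per direction whose genotype ratio differed most from other Tfr cells. Not all of them are described. The members and the gene lists were chosen with earlier results of these data known. Gene models were GENCODE vM21, promoters RefSeq. Scripts were tested on simulated data. Alternatives covered scaling, pseudocount, CPM minimum, fold, runs, cell weighting, intron length, small subclusters and, added after seeing the data, Tfh-dominated clusters and cells with 2 or more Foxp3 UMIs. Results for some genes are not reported here.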

Additional observations from a re-analysis of the deposited data

Results flagged for a closer look

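For 6 named genes the BKO to WT log2 ratio lay on opposite sides of 0 in subcluster 0 and in the other Tfr cells, against both WT runs in each. With 1 library per genotype the difference was not tested. Cd40lg, the ligand for CD40 on B cells, had a ratio of 0.74 in subcluster 0 and -0.53 in other Tfr cells, and its ratio in subcluster 0 was 0.50 without the Tfh-dominated clusters. Capg, an actin-capping protein, had ratios of -0.39 in subcluster 0 and 0.52 in other Tfr cells, and the receptor gene Tnfrsf1b of -0.26 and 0.24. In subcluster 3 both genes were lower in BKO than in either WT run, as in subcluster 0. Capg stood there at 156.5 CPM, against 175.7 and 163.3 CPM, and Tnfrsf1b at 158.8 CPM, against 179.8 and 184.8 CPM. In subclusters 1 and 4 both were higher in BKO. In subcluster 2 Tnfrsf1b was lower in BKO and Capg lay between the WT runs. Foxp1, a factor of resting T cells, had ratios of 0.21 in subcluster 0 and -0.14 in other Tfr cells, Gpr183, a receptor that guides cells to the follicle edge, of 0.16 and -0.21, and the T cell receptor regulator Cd6 of 0.24 and -0.15.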

How the results depend on the processing

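No paired analysis was possible because BKO has 1 library and the WT runs hold the same cells. Of 96 called ratios of named genes 93 kept their sign under every alternative, and the BKO to WT ratio of Lmo4, Ntrk3 and Pde3b did not: it was -0.17, -0.10 and -0.28 among cells with at least 2 Foxp3 UMIs, and that of Lmo4 -0.058 without the Tfh-dominated clusters. The counts moved more than the signs, and the cause was not tested unless the setting itself gives it. Leaving out 1 WT run gave 164 to 181 genes higher and 122 to 140 lower in subcluster 0, and 67 to 98 higher and 97 to 118 lower in BKO, since fewer samples must pass. TMM scaling gave 64 higher and 235 lower in subcluster 0, moving the median ratio to -0.04 in place of 0.09, and library size without ribosomal, mitochondrial and receptor genes gave 67 higher in BKO. A minimum of 50 CPM gave 78 higher and 60 lower in subcluster 0 and 16 higher and 24 lower in BKO, and no minimum gave 467, 363, 1511 and 1549. A 2-fold rule gave 14, 30, 5 and 12. Taking the intron-length trend off gave 68 higher in subcluster 0 and 50 lower in BKO. With at least 2 Foxp3 UMIs 60 were higher and 119 lower in BKO, 17 and 43 of them among the 39 and 78. The share of Tfr rows in subcluster 0 was 12% in BKO, against 37.9% in WT, without the Tfh-dominated clusters, and 12% against 38.9% with at least 2 Foxp3 UMIs, in place of 15.4% against 39.5% (mean of the runs, 39.1% to 40.0% by run). At these depths genes under 20 CPM give too few UMIs for a call.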
